A study of Homo sapiens with 6 samples.

Results

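The genes described here encode the cytosolic chaperone HSP90 (HSP90AA1 and HSP90AB1), 6 of its cochaperones (AHSA1, STIP1, CHORDC1, FKBP4, PTGES3 and CDC37) and the mitochondrial chaperonin pair HSP60 and HSP10 (HSPD1 and HSPE1). They were chosen by name, with earlier results of these data known, and all 10 were found among the 15651 genes of the table. RNA was sequenced from MDA-MB-231, an established triple-negative breast cancer (TNBC) cell line, in 3 libraries from DMSO-treated cells and 3 from cells treated with BRL-50481, a selective inhibitor of the phosphodiesterase PDE7, to find the transcripts that change when PDE7A is inhibited. The paper and the protocol text of the labels give 50 μM for 72 h, whereas a sample tag states 5 μM and 48 h, and the conflict could not be settled from the files. A single cell line was used. In RNA from whole cultures, fewer cells expressing a gene cannot be told apart from less of its RNA in each cell. The unit below is the normalized count, the reads of a gene scaled by the size factor of its library, and the libraries held 30750573 to 33446984 reads on genes.

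HSP90 is an ATP-driven chaperone that brings kinases, steroid hormone receptors and many other client proteins into their active shape. Its cochaperones steer the cycle: some hand clients over from HSP70, some speed up or slow down ATP hydrolysis, and some bring in a class of clients. HSP60 and its lid HSP10 form a chamber in the mitochondrial matrix in which imported proteins fold. Genes of both systems are classic targets of heat shock factor 1 (HSF1), which binds heat shock elements, arrays of the unit NGAAN in alternating orientation, and they are widely expressed at high levels in cancer cells.

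All 10 genes were lower in BRL-50481-treated cells, and in each the 3 treated libraries lay below the 3 DMSO libraries. Log2 fold changes ran from −1.52 for HSPE1 to −0.43 for HSPD1, with a median of −1.04, against a median of 0.015 over the 15246 genes tested. In limma, with a call at an adjusted p (Benjamini-Hochberg) below 0.05, 10 of 10 were lower and 0 higher, where 29.8% of all genes tested were called lower and 28.9% higher. Every treated library lay below every DMSO library in 32.3% of all genes. A fall of more than 1 on the log2 scale was called in 6 of the 10, against 2.98% of all genes, with AHSA1 just past that line at −1.0004. Under the alternatives tried the count was 4 to 6, and with quantile normalization, which gave 4, both AHSA1 (−0.97) and HSP90AA1 (−0.96) stayed short of it. Counted genome-wide, 1.09% of the genes tested had a log2 fold change below that of HSPE1, 3.38% below that of AHSA1 and 17.4% below that of HSPD1. The changes fell into a strongly lowered set of HSPE1, FKBP4, HSP90AA1, CHORDC1, STIP1 and AHSA1, and a set of PTGES3, CDC37, HSP90AB1 and HSPD1 between −0.48 and −0.43, with a gap of 0.53 on the log2 scale in between. This division was made after the values were seen.

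**Figure D1:**
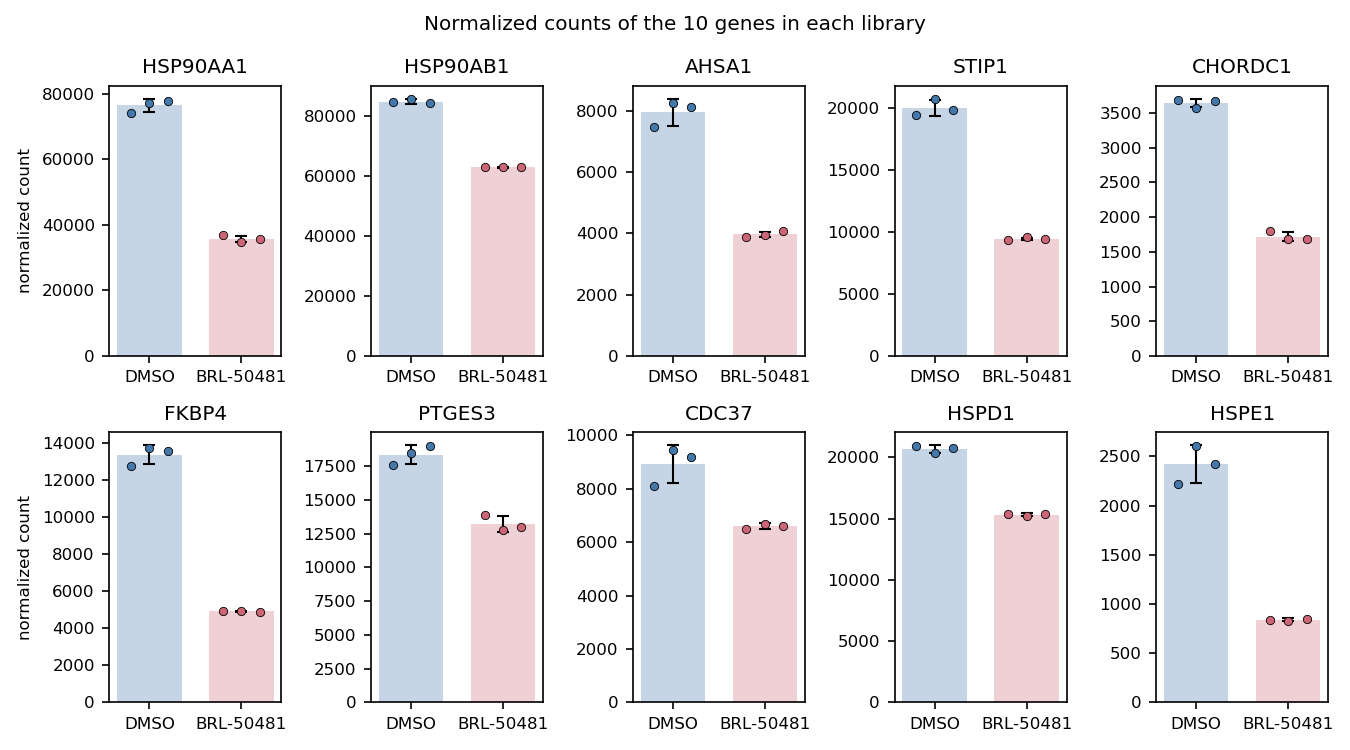
Normalized counts (axes from 0) of the 10 genes in the 3 DMSO and 3 BRL-50481 libraries; points are libraries, bars are means and error bars are SDs. In every panel the treated libraries lie below the DMSO libraries, and the drop is steepest for HSPE1 and FKBP4.

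**Figure D2:**
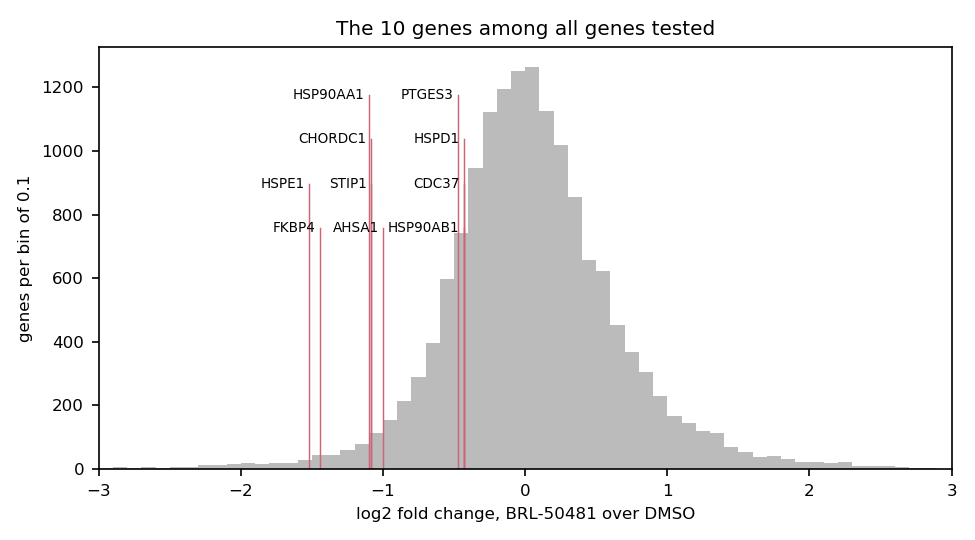
Number of genes (y axis) in each bin of 0.1 of the log2 fold change of BRL-50481 over DMSO (x axis, drawn from −3 to 3) for all genes tested, with a line at each of the 10 genes. All 10 lines lie left of 0, from −1.52 for HSPE1 to −0.43 for HSPD1, while the median of all genes is 0.015.

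DMSO replicate 1 stood apart from the other DMSO libraries, with a residual SD of the log2 values of 0.141 against 0.119 and 0.0964 for replicates 2 and 3 and 0.0791 to 0.0832 in the treated libraries. Without it, the log2 fold changes of the 10 genes ran from −1.58 to −0.42. The markers of the line were abundant, with mean normalized counts in DMSO of 58840 for VIM, 31414 for CD44 and 45015 for AXL. PGR (1.67) and CDH1 (38.2) were low, and a search by symbol found no row for ESR1. Of the luminal markers, KRT19 had 7714, GATA3 189 and FOXA1 43.6. With treatment, VIM (log2 fold change 0.58), CD44 (0.47), AXL (0.12), CDH1 (1.39), KRT19 (0.45) and GATA3 (0.57) were called higher and FOXA1 (−1.02) lower. The part of these shifts in the results was not tested.

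The promoters of these genes were searched for the elements of HSF1 and of the cAMP pathway, since PDE7 breaks down cAMP. Promoter windows of RefSeq (build GRCh38.p14, 250 bases before to 50 after a start site) matched 9 of the 10 genes, FKBP4 not among them, in 15 windows. The windows were read on both strands for GAANNTTC and TTCNNGAA, the cores of the heat shock element, for elements of 3 alternating units, which overlap the cores, and for the full cAMP response element TGACGTCA, the site of the CREB factor that cAMP activates. An element of 3 units was found in 4 of the 15 windows, those of HSP90AA1, HSP90AB1, CHORDC1 and HSPD1, and in 0.490% of all 35116 windows. STIP1 held a single core, TTCCAGAA, just after its start site, and either core was found in 13.5% of all windows. The cAMP response element was found in 2 of the 15 windows, those of HSP90AB1 and CDC37, and in 1.85% of all windows. The stretches that hold them are shown so that strongly and weakly lowered genes can be compared, with the matched elements in capitals and each read 5′ to 3′ on the strand of its gene.
HSP90AA1, heat shock element, chr14:102087114-102087138 (minus strand), positions −94 to −70: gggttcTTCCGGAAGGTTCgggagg
CHORDC1, heat shock element, chr11:90223081-90223115 (minus strand), positions −66 to −32: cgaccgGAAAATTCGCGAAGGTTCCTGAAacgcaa
HSPD1, heat shock element, chr2:197500062-197500090 (minus strand), positions −250 to −222: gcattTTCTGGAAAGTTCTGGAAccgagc
HSP90AB1, heat shock elements, chr6:44247772-44247849 (plus strand), positions 671 to 748: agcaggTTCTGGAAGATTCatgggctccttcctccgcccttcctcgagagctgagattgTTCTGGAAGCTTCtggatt
HSP90AB1, cAMP response element, chr6:44246964-44246983 (plus strand), positions −137 to −118: ggaccaTGACGTCAaggtgg
CDC37, cAMP response element, chr19:10403595-10403614 (minus strand), positions −72 to −53: gggatgTGACGTCAcacagg
Positions are counted from the start site of the canonical GENCODE transcript. The heat shock elements of HSP90AB1 lay in the first intron of its canonical transcript and overlapped no annotated exon, while the stretches of HSPD1 and CDC37 touch exons of other transcripts of the same genes. Elements of 3 units were thus found in windows of strongly lowered genes (HSP90AA1 and CHORDC1) and of weakly lowered ones (HSP90AB1 and HSPD1). Neither core was found in the windows of strongly lowered AHSA1 and HSPE1 or of weakly lowered PTGES3 and CDC37. The HSPD1 stretch also lies upstream of HSPE1, outside the window of HSPE1. A link between elements and the size of the fall was not tested, and these matches of letters were not tested for binding.

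HSP90AA1 encodes the stress-inducible form of cytosolic HSP90 (chromosome 14 of hg38, 102080742 to 102139699). Its normalized counts were 74272, 77359 and 77975 in the DMSO libraries and 36862, 34901 and 35574 in the treated libraries. The groups lay far apart beside a spread within them of under 3% (coefficients of variation 2.59% and 2.78%), and the treated level was 46.7% of the DMSO level (log2 fold change −1.10, standard error 0.044, limma adjusted p = 1.5e-09). HSP90AB1 encodes the form made constitutively (chromosome 6, 44246166 to 44253888). Its counts were 84429, 85592 and 84082 in DMSO and 62766, 62745 and 62924 with BRL-50481. The 3 treated values lay close together (coefficient of variation 0.155%). Over well-covered genes, however, pairs of treated libraries differed by 2.77 to 3.83 times the variance of counting, so this closeness need not recur. The treated level was 74.2% of DMSO (log2 fold change −0.43, standard error 0.041, limma adjusted p = 1.4e-06). With quantile normalization the log2 fold change was −0.28. As the promoter stretches show, both genes have a heat shock element of 3 units, upstream in HSP90AA1 and in the first intron in HSP90AB1, and HSP90AB1 has a cAMP response element as well.

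The balance of the HSP90 forms shifted. HSP90AA1 had 0.880, 0.904 and 0.927 normalized counts for each count of HSP90AB1 in the DMSO libraries and 0.587, 0.556 and 0.565 in the treated ones. The groups did not overlap, and the log2 ratio was −0.15 ± 0.038 in DMSO and −0.81 ± 0.040 with treatment (SD, n = 3 each), a difference of −0.67 (two-sided exact permutation test, p = 0.1, and 0.1 after adjustment over 3 ratios). This is the smallest p that 3 libraries against 3 can give. Per length of transcript, HSP90AA1 made up 41.0% to 42.3% of the pair in DMSO and 30.6% to 31.7% with treatment. Together the pair took 0.488% to 0.497% of all normalized counts in DMSO and 0.315% to 0.322% with BRL-50481.

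**Figure D3:**
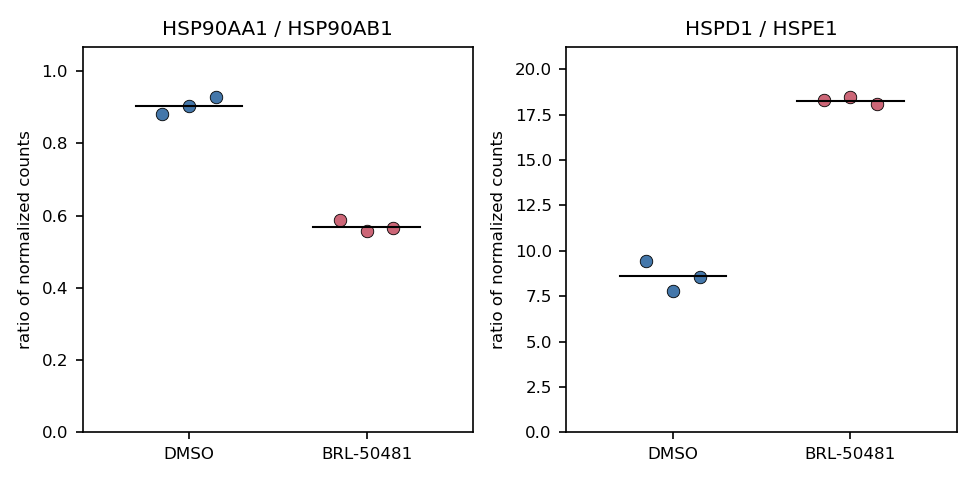
Ratio of normalized counts (y axes from 0) of HSP90AA1 to HSP90AB1 and of HSPD1 to HSPE1 in each library, with points for libraries and lines for group means. The first ratio goes from 0.880 to 0.927 in DMSO down to 0.556 to 0.587 with BRL-50481, and the second from 7.79 to 9.43 up to 18.1 to 18.4.

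All 6 cochaperone genes were called lower, where 29.8% of all genes tested were, and the median of their log2 fold changes was −1.04. FKBP4 encodes FKBP52, an immunophilin that binds HSP90 through its TPR domain and takes part in steroid receptor complexes (chromosome 12, 2794970 to 2805423). It went from 12757, 13697 and 13561 normalized counts to 4946, 4903 and 4859. Its treated level was 36.8% of DMSO, the lowest of the cochaperones (log2 fold change −1.44, standard error 0.046, limma adjusted p = 3.3e-10). STIP1 encodes HOP, the adaptor that holds HSP70 and HSP90 together for the transfer of clients (chromosome 11, 64185272 to 64204543). Its counts were 19423, 20719 and 19812 in DMSO and 9353, 9549 and 9402 with treatment. The treated level of STIP1 was 47.2% of DMSO (log2 fold change −1.08, standard error 0.044, limma adjusted p = 1.6e-09).

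AHSA1 encodes AHA1, the activator of the HSP90 ATPase (chromosome 14, 77457870 to 77469472). Its counts were 7462, 8272 and 8145 in DMSO and 3899, 3962 and 4064 with BRL-50481. The level fell to 50.0% (log2 fold change −1.0004, standard error 0.052, limma adjusted p = 8.9e-09). Over the 16 alternatives its change ran from −1.05 to −0.97, and in 9 of them it stayed short of a fall of 1 on the log2 scale. CHORDC1 encodes the CHORD-domain protein CHP1, also known as morgana (chromosome 11, 90200429 to 90223077). It had 3682, 3572 and 3675 counts in DMSO and 1798, 1678 and 1682 with treatment. The level was 47.2% of DMSO (log2 fold change −1.08, standard error 0.053, limma adjusted p = 5.2e-09), and the promoter stretch printed above for CHORDC1 holds 3 overlapping matches to the element of 3 units.

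PTGES3 encodes p23, which binds the closed, ATP-bound form of HSP90 (chromosome 12, 56663341 to 56688408). Its counts were 17608, 18472 and 18955 in DMSO and 13857, 12752 and 12991 with BRL-50481. The level was 71.9% of DMSO (log2 fold change −0.48, standard error 0.049, limma adjusted p = 2.9e-06). Neither core of the heat shock element was found in the window of PTGES3, nor in those of CDC37 and the strongly lowered AHSA1 and HSPE1. CDC37 encodes the cochaperone that brings protein kinases to HSP90 (chromosome 19, 10391133 to 10420121). It had 8104, 9445 and 9185 counts in DMSO, the widest relative spread among the cochaperones in that group (coefficient of variation 7.98%), and 6477, 6696 and 6605 with treatment. The treated level of CDC37 was 74.1% of DMSO (log2 fold change −0.43, standard error 0.057, limma adjusted p = 2.8e-05).

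Counts of the 6 cochaperone genes summed fell slightly more than those of HSP90AA1 and HSP90AB1 summed. The log2 ratio of the sums was −1.20, −1.14 and −1.14 in the DMSO libraries and −1.30, −1.30 and −1.31 in the treated ones. The difference of −0.15 on the log2 scale compares with SDs of 0.036 and 0.0058 (n = 3 each; two-sided exact permutation test, p = 0.1, and 0.1 after adjustment). The groups did not overlap, and the shift was small beside the fall of either sum.

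HSPD1 encodes HSP60 and HSPE1 encodes HSP10, and the genes stand head to head on chromosome 2, HSPD1 on the minus strand (197486584 to 197516737) and HSPE1 on the plus strand (197500140 to 197503449). Their canonical start sites are 539 bases apart, and the HSPD1 stretch printed above lies between them, 289 to 317 bases before the start site of HSPE1. HSPD1 had 20941, 20321 and 20726 normalized counts in DMSO and 15404, 15182 and 15402 with BRL-50481. Its treated level was 74.2% of DMSO (log2 fold change −0.43, standard error 0.041, limma adjusted p = 1.6e-06). HSPE1 had 2222, 2609 and 2428 counts in DMSO and 843, 823 and 853 with treatment. Its level fell to 34.8% of DMSO, the lowest of the 10 genes (log2 fold change −1.52, standard error 0.067, limma adjusted p = 2.8e-09).

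The chaperonin genes fell by unequal amounts. HSPD1 had 9.43, 7.79 and 8.54 counts for each count of HSPE1 in the DMSO libraries and 18.3, 18.4 and 18.1 in the treated ones. The log2 ratio rose from 3.10 ± 0.14 to 4.19 ± 0.016 (SD, n = 3 each), a difference of 1.09 with no overlap (exact permutation test, two-sided p = 0.1 before and after adjustment). Per length of transcript, HSPD1 stood 1.93 to 2.34 times above HSPE1 in DMSO and 4.48 to 4.58 times above it with treatment. The HSPE1 transcript is the shortest of the 10, at 557 bases. After a loess correction for transcript length and GC content the log2 fold changes were −1.46 for HSPE1 and −0.44 for HSPD1. Exons of HSPE1 also belong to the readthrough gene HSPE1-MOB4, for which the search for readthrough copies found no row, so that the level of HSPE1 is uncertain.

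Ordered by normalized count per kilobase of transcript, HSP90AB1 was highest in DMSO (33151 ± 310, SD, n = 3) and CHORDC1 lowest (1187 ± 20.2). HSP90AA1 came second with 23710 ± 615. PTGES3 (9665 ± 360), STIP1 (9339 ± 311) and HSPD1 (9204 ± 140) followed, and neighbours in this order overlapped between libraries. AHSA1 (5953 ± 326) and CDC37 (5508 ± 439) overlapped as well, and HSPE1 (4344 ± 348) and FKBP4 (3590 ± 137) came after them without overlap. With BRL-50481, HSP90AB1 (24584 ± 38.2) stayed first and HSP90AA1 (11084 ± 309) second. PTGES3 (6955 ± 306) and HSPD1 (6828 ± 56.7) were next and overlapped each other. HSPD1 now ranked above STIP1 (4409 ± 47.6), and CDC37 (4075 ± 68.0) above AHSA1 (2973 ± 62.4), with no overlap in either pair, while HSPE1, FKBP4 and CHORDC1 remained the last 3. Processed pseudogenes are known for HSP90AA1, HSP90AB1, PTGES3, HSPD1 and HSPE1, and reads that also match a copy could be missing from these levels.

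A wider list of 32 genes held the remaining HSP90 paralogs, further cochaperones and factors tied to HSP90, and 18 of them were called lower, 2 higher and 12 neither, where 29.8% of all genes tested were called lower and 28.9% higher. The median log2 fold change of the list was −0.18. HSP90B1, the HSP90 of the endoplasmic reticulum, had 76524 ± 433 normalized counts in DMSO and 55148 ± 1185 with treatment (SD, n = 3 per group; log2 fold change −0.47, or −0.28 with quantile normalization). TRAP1, the mitochondrial HSP90, went from 4016 ± 231 to 2918 ± 136 (−0.46). The largest falls among the well-expressed genes were those of TTI2, a subunit of the TTT complex that helps PI3K-like kinases mature (−0.78), and SUGT1, the SGT1 cochaperone (−0.67). NUDCD1 (−0.63) and SGTA, a TPR cochaperone for tail-anchored proteins (−0.58), came next. DNAJC7, a J-domain protein with TPR repeats that binds HSP70 and HSP90, rose from 2699 ± 138 to 3926 ± 122 (0.54). The other gene called higher was UNC45A, a myosin chaperone (0.20), named after its value was seen. None of the 32 fell by more than 1 on the log2 scale. Without DMSO replicate 1, 5 genes of the list were called higher, and without DMSO replicate 3 or BRL-50481 replicate 3 only 1 was. The share of all genes called higher in these fits is not given here.

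**Figure D4:**
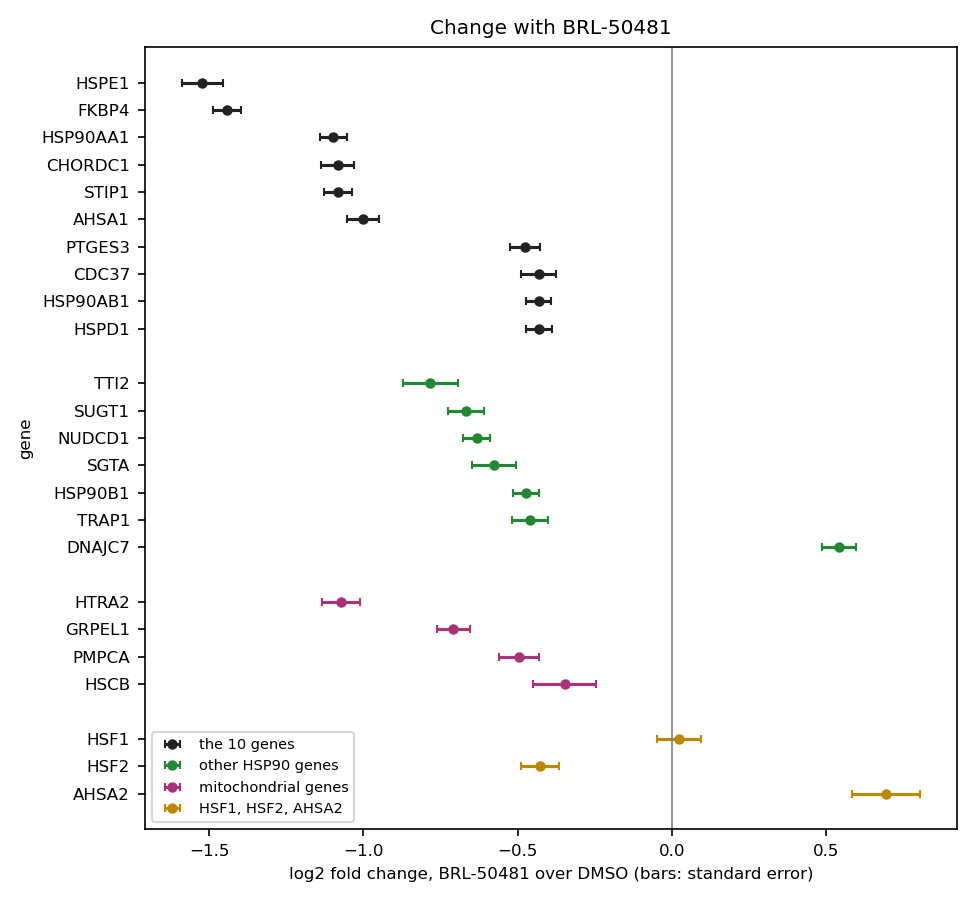
Log2 fold change of BRL-50481 over DMSO (x axis, with standard errors as bars) for the 10 genes and for named genes of the HSP90 system, the mitochondrial list, HSF1, HSF2 and AHSA2 (y axis). The 10 genes lie between −1.52 and −0.43, while DNAJC7 at 0.54 and AHSA2 at 0.69 lie right of 0.

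In a list of 17 mitochondrial chaperones and proteases, the surroundings of HSP60 and HSP10, 10 genes were called lower, 3 higher and 4 neither, against the same 29.8% lower and 28.9% higher among all genes. Its median log2 fold change was −0.28. HTRA2, a protease of the intermembrane space, fell most, with 2111 ± 132 counts in DMSO and 1003 ± 17.3 with treatment (SD, n = 3 per group; log2 fold change −1.07). GRPEL1, the nucleotide exchange factor of the mitochondrial HSP70 (−0.71), PMPCA, a subunit of the protease that removes import signals (−0.50), and TRAP1 (−0.46) were lower too. HSCB, an iron-sulfur cluster cochaperone, changed by −0.35, but its call was lost without DMSO replicate 3 (limma adjusted p = 0.0588). The genes called higher, named after their values were seen, were the proteases SPG7 (0.23) and YME1L1 (0.12) and the disaggregase CLPB (0.23). Without BRL-50481 replicate 3, or after the correction for length and GC content, 1 of the list was called higher, SPG7 in both cases. The share of all genes called higher without that library is not given here. After that correction CLPB was at −0.026 and YME1L1 at 0.020, and the call of YME1L1 was also lost on leaving out any library but DMSO replicate 1.

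HSF1 had 3946 ± 441 normalized counts in DMSO and 3991 ± 138 with BRL-50481 (SD, n = 3 each), and its log2 fold change of 0.022 (standard error 0.071, limma adjusted p = 0.81) was within the spread between libraries. Its sign turned when DMSO replicate 1 (−0.062) or BRL-50481 replicate 2 (−0.0051) was left out, and after the correction for length and GC content it was called higher (0.12, adjusted p = 0.012). The related factor HSF2 was lower, from 1605 ± 35.4 to 1195 ± 65.1 (log2 fold change −0.43, limma adjusted p = 5.6e-05). AHSA2, a sequence relative of AHSA1 now named AHSA2P, was the only row that matched the search for pseudogenes and readthrough copies of the 10 genes. It rose from 172 ± 6.57 to 279.6 ± 29.5 (log2 fold change 0.69, limma adjusted p = 0.00012), opposite to AHSA1.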

How the data were processed

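RNA from 3 DMSO and 3 BRL-50481 libraries was analysed from 1 table. By their Methods, the authors mapped 76-base single-end reads with STAR 2.7.1a (hg38), counted them per gene with htseq-count (reverse-strand mode, UCSC annotation), filtered low genes and used DESeq2 1.28. The deposited signal of a gene is its read count divided by a size factor. The authors' fold changes and p-values were not used. All 93906 values were whole multiples of 1 read within 0.01, from which reads per library were taken. The labels name oligo-dT selection and the series record ribosomal RNA depletion. Groups came from sample titles. The series record calls the replicates biological.

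The 15246 of 15651 genes that reached 4 normalized counts in 3 or more libraries were compared with limma-trend (limma 3.58.1, R 4.3.3). Values were log2-transformed after adding 1, and fold changes are on that scale. The fit had treatment as its only term, with Benjamini-Hochberg adjustment over all genes tested. The code was run on simulated negative binomial counts with a single dispersion and libraries that differed in depth only. DMSO libraries here differed by up to 24.9 times the variance of counting, so that check does not vouch for the calls. Ratios were compared by exact permutation. Positions, lengths and overlaps came from GENCODE release 44 on hg38 (by symbol or RefSeq synonym, 96.5% of genes). The alternatives tried were no filter or a minimum mean of 20, a pseudocount of 0.5 or 4, quantile normalization, median centring, no trend, a replicate block, a loess correction for length and GC content (span 0.5) with and without the block, and leaving out each library. Named genes were the 10, HSP90B1, TRAP1, HSF1, HSF2, copies of the 10, and in each wider list the 5 largest called changes at a mean of at least 100. The genes and lists were chosen with earlier results of these data known.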

Additional observations from a re-analysis of the deposited data

How the results depend on the processing

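Under the 16 alternatives, the 10 genes gave 160 log2 fold changes, from −1.58 to −0.28, and 160 of 160 were negative with an adjusted p-value of at most 0.00502 in limma. Quantile normalization moved their median to −0.96, HSP90AB1 to −0.28 and HSP90B1 to −0.28. With median centring 4 genes of the wider HSP90 list were called higher, and over all genes 4743 were, against 4400 in the main fit. With libraries left out in turn, 1 to 5 of the list were called higher. The share of all genes called higher with libraries left out is not given here, so a change in the list cannot be told from one in all genes. In the mitochondrial list 1 gene was called higher after the correction for length and GC content, with or without the replicate block. With libraries left out 1 to 3 were, again without the share of all genes. CLPB turned to −0.026 after that correction, with or without the block. HSF1 was called higher at 0.12 after that correction, with or without the block. With libraries left out it ran from −0.062 to 0.10 and was negative at −0.062 without DMSO replicate 1 and −0.0051 without BRL-50481 replicate 2. With the replicate number as a block, 10 of the 10 genes were called lower, with the same median of −1.04, and 4440 genes were called higher and 4589 lower in all, against 4400 and 4546 without it. Deviations of libraries with the same number correlated at 0.0514 to 0.121 over 12251 genes and those with different numbers at −0.159 to 0.0607, and BRL-50481 replicate 3 correlated best with DMSO replicate 2, so the numbers were not taken as pairs. Leaving out libraries moved the difference in the log2 ratio of HSPD1 to HSPE1 between 1.03 and 1.16, and that of HSP90AA1 to HSP90AB1 between −0.69 and −0.65. After the correction for length and GC content, 4169 genes were called higher and 5517 lower. Tests on counts (edgeR and DESeq2), listed as alternatives if reads could be recovered, were not run. In 3 libraries 1 read was worth 0.992 to 1.01 normalized counts, too near 1 for the recovered reads to pass the check set for a count test. The recovered reads were used for depth, also in the simulated counts, and for the fewest reads behind a value. The comparisons of replicates with the variance of counting rest on them too, and so on reads that did not pass that check. The fewest reads behind a value of the 10 genes was 817 (HSPE1), and exact permutation of 3 libraries against 3 cannot give a p below 0.1.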
